A study of Mus musculus with 6 samples.

Results

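Carriers of glucose, amino acids and monocarboxylates were examined as a group of 82 genes among the 18193 genes that had a probe set of their own on the arrays. They are the members of 9 solute carrier (Slc) families, Slc1, Slc2, Slc3, Slc6, Slc7, Slc16, Slc36, Slc38 and Slc43, and were taken by gene symbol. The 82 genes had 161 probe sets (groups of short probes against 1 transcript), and each gene was read at the brightest of its probe sets, by the mean over the 6 arrays. Endothelial cells were sorted from pooled LN (skin-draining and mesenteric) of untreated 6-week-old C57BL/6 mice, after removal of CD45+ cells, by their staining for gp38 and CD31. Of the 6 arrays, 3 carry the gate word CD31+ and 3 the gate words double positive, with replicate numbers 1 to 3 in each. The number of mice behind a sample is not given in the sources used here.

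The labels call the CD31+ arrays LEC and the double-positive arrays BEC, whereas in the study's gates LEC stain for both gp38 and CD31 and BEC for CD31 without gp38. The groups are therefore named by their gate word, and every difference is given in log2 units as double-positive mean minus CD31+ mean. If the arrays were named by the cell type word instead, LEC minus BEC would have the opposite sign throughout. Pdpn, which encodes gp38, lay between 7.28 and 8.32 in the double-positive arrays and between 3.29 and 3.75 in the CD31+ arrays. Pecam1, which encodes CD31, lay at 2.41 and 2.48 in the groups, close to the lowest value of the arrays (the floor, 2.39), so its probe set does not check that gate. Of 6 markers of lymphatic endothelium, 4 passed the test as higher in the double-positive arrays, and 6 of 6 markers of blood endothelium passed as lower. The lymphatic markers that did not pass were Flt4, at 3.28 (adjusted p = 0.0548 from limma), and Prox1. Prox1, which the study calls the master regulator of the LEC lineage, differed by 0.07 at the brightest of its 3 probe sets, where its groups overlapped. Its dimmer probe sets are not reported here. Of 6 markers shared by all endothelium limma called 0, though 2 were lower and 0 higher at an unadjusted p of less than 0.05.

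Carriers of these families move small hydrophilic nutrients across membranes that they cannot cross by themselves. Slc2 proteins (GLUT) let hexoses down their gradient. Slc1, Slc6 and Slc38 proteins mostly use the sodium gradient to bring amino acids and related compounds into the cell, and Slc36 proteins use protons. Slc7 proteins exchange or take up amino acids, some of them only when bound to a heavy chain of the Slc3 family, and Slc43 proteins include carriers of large neutral amino acids. Slc16 proteins (MCT) carry lactate, pyruvate and other monocarboxylates. In brain vessels, endothelial carriers such as Slc2a1 and Slc7a5 are known for passing glucose and amino acids from blood to tissue.

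Among the carriers, Slc38a4 and Slc16a12 were called higher in the double-positive arrays over all probe sets. With replicate number entered as a block, 0 carriers were called there, beside only 4 of all 45037 probe sets (277 without the block). Calls given below as lost with the block over all probe sets are to be read beside that count. When dim probe sets were left out, Slc43a2, Slc16a1 and Slc38a2 were called as well, of which only Slc43a2 kept its call after the arrays were centred. Differences were tested with limma over all 45037 probe sets that are not controls, with Benjamini-Hochberg adjustment at 5% FDR, and the number of arrays limits the precision. Of the 82 carriers, 2 were called higher and 0 lower, that is 2.44% and 0%. Over all 18193 genes read in the same way, 0.879% were called higher and 0.176% lower. At an unadjusted p of less than 0.05, 7 carriers were higher, against 12.5% of all genes, and 1 was lower, against 2.12%. The median difference was 0.00 both over the 82 carriers and over all genes. An exact permutation test on 1 gene cannot give a 2-sided p under 0.1 with 3 arrays against 3.

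Most carriers were dim. The arrays were therefore also tested over the 5764 probe sets with a mean log2 value of at least 5 over the 6 arrays, which is called the filter below. It was passed by 10 of the 82 carriers (12.2%), against 21.9% of all genes. Of these 10, limma called 4 higher and 0 lower, beside 30.7% higher and 3.46% lower of the 3984 genes that passed. With replicate number entered as a block it called 6 and 0, beside 44.9% and 4.37% of these genes. The bright probe sets were brighter as a whole in the double-positive arrays, with a median difference of 0.75. Centring the arrays on the bright probe sets subtracts 0.68 from every difference, so that differences of up to that size change with the scaling. With the filter and centred arrays 2 of the 10 carriers were called higher, Slc38a4 and Slc43a2, and 0 lower, beside 10.7% and 9.04% of the genes that passed. A carrier that passed the filter through 1 group, as Slc38a4 did, had to differ, and these counts describe the calls only.

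**Figure D1:**
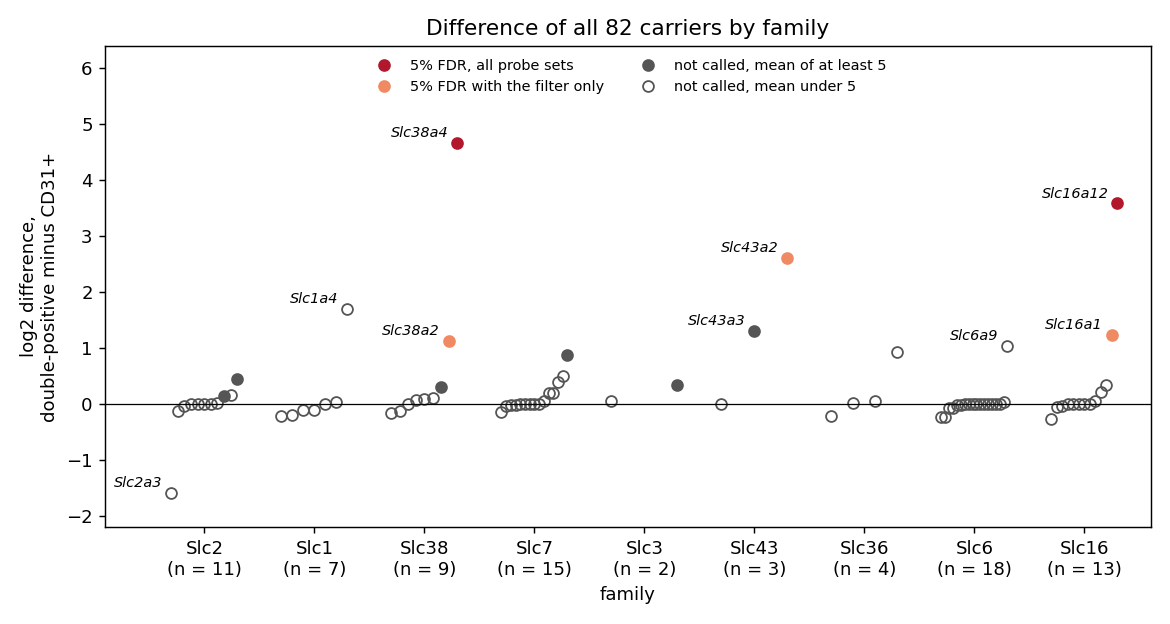
Difference of each of the 82 carriers at its brightest probe set (y axis, log2, double-positive minus CD31+) by family (x axis). Each point is a gene, filled dark red where called over all probe sets, orange where called with the filter only, grey where bright and not called, and open where the mean is under 5. Slc38a4 (4.67) and Slc16a12 (3.59) lie highest, Slc2a3 (-1.58) lies lowest, and most points lie close to 0.

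The groups did not overlap and differed by at least 1 for 8 carriers, 7 of them higher and 1 lower in the double-positive arrays. Over all genes this share was 9.31% higher and 1.5% lower. The 7 were Slc38a4, Slc16a12, Slc43a2, Slc1a4, Slc16a1, Slc38a2 and Slc6a9, and the 1 was Slc2a3. These are carriers of neutral amino acids (Slc38a4, Slc38a2, Slc43a2, Slc1a4, Slc6a9), of monocarboxylates and related compounds (Slc16a1, Slc16a12) and of glucose (Slc2a3).

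Sequence upstream of the transcription start is shown for Slc38a4 and Slc16a12, called over all probe sets, and for Slc43a2, called with the filter and centred arrays. It shows the DNA next to genes whose transcripts differed. Slc7a11 was added, which holds a known motif but differed little. Slc16a1 and Slc38a2, called with the filter but not with centred arrays, are not shown. The RefSeq promoter table (GRCm38.p6) held windows for 59 of the 82 carriers, 80 windows in all, of which the 250 bases before the start were used. Each line gives the gene strand from 5′ to 3′, for Slc38a4 the most upstream of 3 starts and for Slc43a2 the more upstream of 2. The windows are Slc38a4 at chr15:97055957-97056206 (minus strand), Slc16a12 at chr19:34747329-34747578 (minus strand), Slc43a2 at chr11:75531444-75531693 (plus strand) and Slc7a11 at chr3:50443614-50443863 (minus strand). Capitals mark TGATGNAAN, a form of the amino acid response element, or ACGTG, the core of the hypoxia response element, on either strand.
Slc38a4: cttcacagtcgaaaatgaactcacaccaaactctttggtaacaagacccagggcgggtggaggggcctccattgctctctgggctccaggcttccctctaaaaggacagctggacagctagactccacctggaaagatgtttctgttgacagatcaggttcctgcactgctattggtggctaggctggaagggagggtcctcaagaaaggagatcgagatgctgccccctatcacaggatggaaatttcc
Slc16a12: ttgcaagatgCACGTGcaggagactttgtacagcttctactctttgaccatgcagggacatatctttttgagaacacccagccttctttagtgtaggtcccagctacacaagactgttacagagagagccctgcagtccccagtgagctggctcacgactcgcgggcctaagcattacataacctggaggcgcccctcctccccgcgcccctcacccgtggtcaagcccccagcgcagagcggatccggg
Slc43a2: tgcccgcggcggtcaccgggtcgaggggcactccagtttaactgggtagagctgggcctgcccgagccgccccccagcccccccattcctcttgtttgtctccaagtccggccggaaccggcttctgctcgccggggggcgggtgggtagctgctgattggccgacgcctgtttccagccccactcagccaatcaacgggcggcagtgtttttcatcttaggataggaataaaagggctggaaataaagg
Slc7a11: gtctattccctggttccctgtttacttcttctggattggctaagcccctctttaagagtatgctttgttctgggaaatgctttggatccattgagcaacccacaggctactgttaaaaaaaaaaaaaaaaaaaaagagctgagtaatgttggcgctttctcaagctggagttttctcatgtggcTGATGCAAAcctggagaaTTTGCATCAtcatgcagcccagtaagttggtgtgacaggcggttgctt

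The letters TGATGNAAN stood in 4 of the 80 carrier windows (5%) and in 3.44% of all 32851 windows of the table. The letters ACGTG stood in 21 carrier windows (26.2%) and in 16.6% of all windows. Slc7a11 held the first motif 2 times, once on each strand, and Slc16a12 the second 2 times, as a single palindrome read on both strands. Neither motif was found in the 3 windows of Slc38a4 or in the 2 windows of Slc43a2. Of the windows not shown, that of Slc16a1 held ACGTG 2 times, also as a single palindrome, and that of Slc38a2 held neither motif. These are matches of letters and do not show a bound factor.

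Sodium-coupled carriers of the Slc38 family (9 genes) held the largest difference among the carriers. Slc38a4, which encodes SNAT4, a carrier of neutral amino acids known from liver and from the placenta, where the gene is imprinted, had log2 values of 7.74, 8.28 and 7.85 in double-positive replicates 1 to 3 and of 3.88, 3.16 and 2.81 in CD31+ replicates 1 to 3. All 3 double-positive arrays lay far above all 3 CD31+ arrays, which were dim. The difference was 4.67 (standard error 0.340, adjusted p = 0.0321 from limma), and 4.00 with centred arrays. It passed the filter only through its double-positive values, so the filtered test adds no support. Over all probe sets the call was lost with replicate number entered as a block (adjusted p = 0.214 from limma) and without CD31+ replicate 2 or 3 or without any 1 of the double-positive arrays (adjusted p = 0.0780 to 0.138 from limma). Its dimmer probe set, between 4.69 and 6.00 against 3.13 to 3.48, differed by 1.96 in the same direction (unadjusted p = 0.00559, adjusted p = 0.184 from limma).

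Slc38a2, which encodes SNAT2, the neutral amino acid carrier that cells make more of when amino acids run short, was bright on all arrays. It had 11.82, 11.67 and 12.29 in the double-positive arrays and 10.98, 11.00 and 10.40 in the CD31+ arrays, so that the groups did not overlap. The difference of 1.13 (standard error 0.262) did not pass over all probe sets (adjusted p = 0.247 from limma) but did with the filter (adjusted p = 0.0261 from limma), and was 0.46 with centred arrays, where it did not pass (adjusted p = 0.286 from limma). With the filter, the call was lost without CD31+ replicate 3 or double-positive replicate 1 or 3 (adjusted p = 0.0588 to 0.0949 from limma). A dimmer probe set of Slc38a2, with a mean of 6.13, differed by -0.13. Slc38a1, Slc38a2 and Slc38a4 follow each other on chromosome 15 with no other protein-coding gene of the RefSeq table between them. Slc38a1, a glutamine carrier, was dim at 2.73 ± 0.317 and 2.66 ± 0.0736 (SD, n = 3 each). Slc38a10 was bright in both groups, at 9.58 ± 0.260 and 9.28 ± 0.230 (SD, n = 3 each), a difference of 0.30 with a 95% confidence interval of -0.22 to 0.81.

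**Figure D2:**
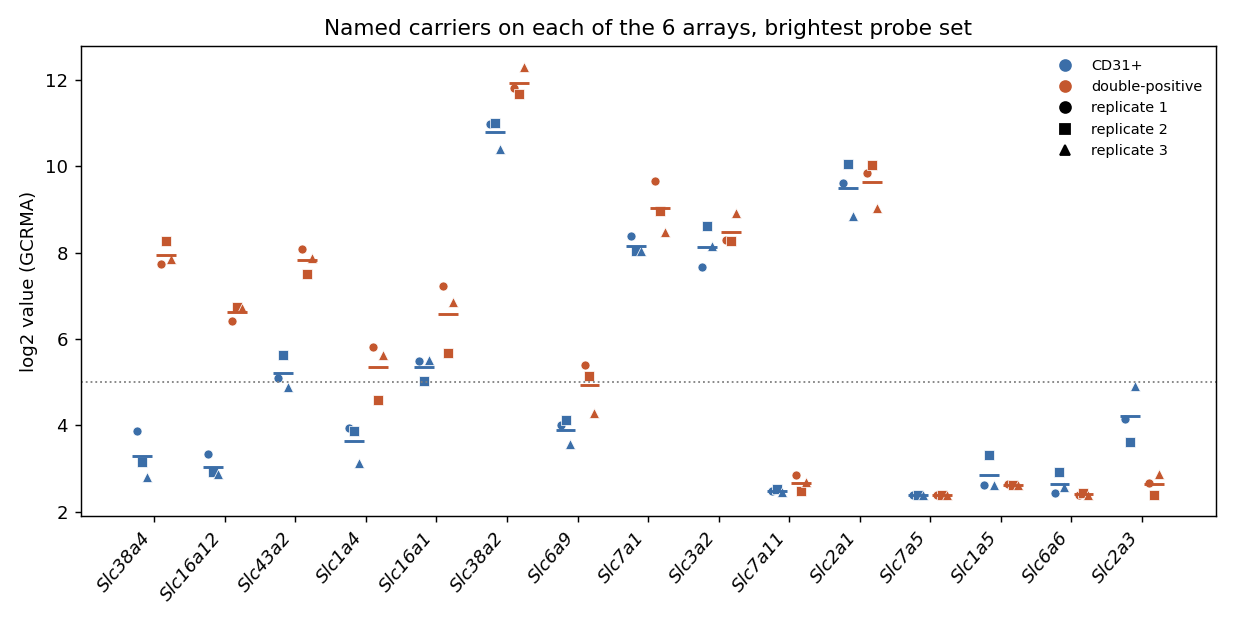
Log2 values (y axis, GCRMA) of 15 carriers (x axis), each at its brightest probe set, by array. A point is 1 array, its symbol gives the replicate number, bars are group means and the dotted line marks a value of 5. The groups lie apart for Slc38a4, Slc16a12, Slc43a2, Slc1a4, Slc16a1, Slc38a2, Slc6a9, Slc7a1 and Slc2a3, and overlap for the rest. Levels of different genes cannot be compared on this scale.

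Monocarboxylate carriers (Slc16, 13 genes) gave the other call over all probe sets. Slc16a12, which encodes MCT12, a carrier of creatine known from lens and kidney, had 6.43, 6.75 and 6.71 in double-positive replicates 1 to 3 and 3.33, 2.91 and 2.87 in CD31+ replicates 1 to 3. The 3 double-positive values lay close together and far above the CD31+ values. The difference was 3.59 (standard error 0.172, adjusted p = 0.0169 from limma), and 2.91 with centred arrays. Its mean over the arrays was 4.83, just under the limit of the filter. The call was lost with the replicate block (adjusted p = 0.189 from limma) and without CD31+ replicate 2 or 3 or any 1 double-positive array (adjusted p = 0.0553 to 0.0825 from limma). Slc16a12 has no second probe set of its own.

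Slc16a1, which encodes MCT1, the widely used carrier of lactate and pyruvate, had 7.22, 5.68 and 6.86 in the double-positive arrays and 5.49, 5.03 and 5.51 in the CD31+ arrays. Double-positive replicate 2 lay close to the CD31+ arrays. The difference of 1.24 (standard error 0.472) did not pass over all probe sets (adjusted p = 0.572 from limma) and passed narrowly with the filter (adjusted p = 0.0493 from limma). It was 0.57 with centred arrays and did not pass there (adjusted p = 0.360 from limma), nor with the filter when any 1 array other than double-positive replicate 2 was left out (adjusted p = 0.0850 to 0.180 from limma). With the 2 probe sets of Slc16a1 averaged, the difference was 0.62 (adjusted p = 0.324 from limma over genes). Slc16a3, which encodes the lactate exporter MCT4, was at the floor on all 6 arrays. Slc16a9 lay near 5 in both groups, at 5.07 ± 0.274 and 4.86 ± 0.0813 (SD, n = 3 each), and Slc16a7, which encodes MCT2, was dim at 3.21 ± 0.396 and 2.86 ± 0.112 (SD, n = 3 each).

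Carriers of large neutral amino acids differed within the Slc43 family (3 genes). Slc43a2, which encodes LAT4, a carrier that lets leucine, phenylalanine and similar amino acids down their gradient, had 8.09, 7.50 and 7.87 in the double-positive arrays and 5.09, 5.62 and 4.89 in the CD31+ arrays. The groups were well apart. The difference of 2.62 (standard error 0.266) missed the threshold over all probe sets (adjusted p = 0.0540 from limma) but reached it with the filter (adjusted p = 0.000698 from limma) and with the filter and centred arrays, at 1.94 (adjusted p = 0.000770 from limma). With the filter it passed without any 1 array. Its dimmer probe sets differed by 0.30 and 0.00, at means of 3.39 and 2.39, and with the probe sets averaged the difference was 0.97 (adjusted p = 0.0272 from limma over genes). Slc43a3, a carrier of purine nucleobases, had 9.46, 8.55 and 8.26 against 7.47, 8.33 and 6.53. These groups overlapped, and the difference of 1.31 did not pass over all probe sets (adjusted p = 0.659 from limma) or with the filter (adjusted p = 0.0700 from limma), but passed with the filter and the replicate block (adjusted p = 0.0133 from limma). With centred arrays it was 0.63. Slc43a1 was at its lowest value on all arrays.

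**Figure D3:**
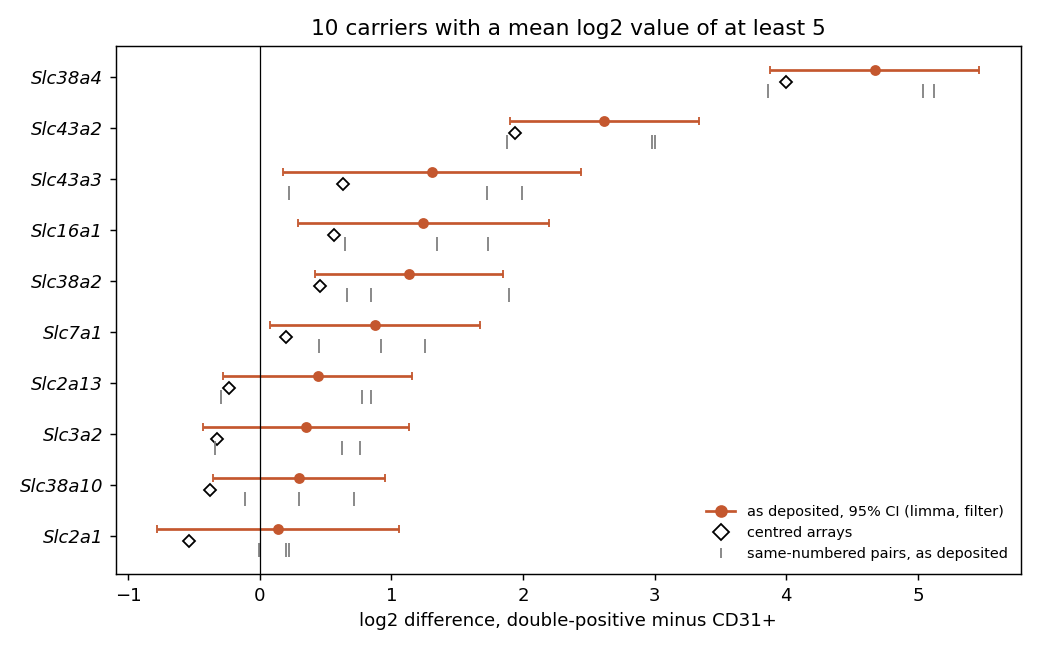
Differences (x axis, log2, double-positive minus CD31+) of the 10 carriers with a mean log2 value of at least 5 (y axis). Circles with bars are the difference and its 95% confidence interval from limma with the filter, diamonds the difference with centred arrays, and ticks the differences within the 3 same-numbered pairs of arrays. Slc38a4 and Slc43a2 stay far above 0 with centred arrays, while Slc38a10, Slc3a2, Slc2a13 and Slc2a1 turn below 0.

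Cationic and heteromeric amino acid carriers (Slc7, 15 genes, and Slc3, 2 genes) were called at none of their brightest probe sets, with 1 higher at an unadjusted p of less than 0.05, Slc7a7. Slc7a1, which encodes CAT1, the main arginine and lysine carrier of endothelium, had 9.65, 8.96 and 8.49 in the double-positive arrays and 8.40, 8.04 and 8.04 in the CD31+ arrays. The lowest double-positive value lay only just above the highest CD31+ value. The difference of 0.87 did not pass over all probe sets (adjusted p = 0.600 from limma) or with the filter (adjusted p = 0.0819 from limma), passed with the filter and the replicate block (adjusted p = 0.0321 from limma), and was 0.20 with centred arrays. A second probe set of Slc7a1, with a mean of 7.73, had 9.32, 8.32 and 8.78 against 6.80, 6.48 and 6.68. There the groups were well apart, by 2.15, which did not pass over all probe sets (adjusted p = 0.0880 from limma) but did with the filter (adjusted p = 0.00212 from limma), also with centred arrays (adjusted p = 0.00823 from limma). The probe sets of Slc7a1 thus disagreed in size, and the third was at the floor.

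Slc3a2, which encodes the heavy chain 4F2hc that brings several Slc7 carriers to the membrane, had 8.49 ± 0.364 and 8.14 ± 0.474 (SD, n = 3 each), a difference of 0.35 with a 95% confidence interval of -0.54 to 1.24. With centred arrays it was -0.33. Its light chain Slc7a5 (LAT1), the carrier of large neutral amino acids known from brain vessels, had 2.40 on all 6 arrays, and Slc7a8 (LAT2) was at the floor as well. Slc7a11, the light chain that exchanges cystine for glutamate, was dim at 2.67 ± 0.191 and 2.49 ± 0.0271 (SD, n = 3 each). The light chains with some signal were Slc7a6, at 4.63 ± 0.744 and 4.24 ± 0.276, and Slc7a7, at 4.56 ± 0.295 and 4.06 ± 0.0899 (SD, n = 3 each), both exchangers of cationic for neutral amino acids. Slc7a7 differed by 0.50 (unadjusted p = 0.0396, adjusted p = 0.501 from limma), or by -0.18 with centred arrays. A probe set at the floor does not show that a transcript is absent. For beta-actin, the probe set at the 3′ end lay between 9.05 and 10.8 and the one at the 5′ end between 2.98 and 3.31 on the same arrays.

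Glutamate and neutral amino acid carriers of the Slc1 family (7 genes) were dim, with 0 called and 1 higher at an unadjusted p of less than 0.05. That was Slc1a4, which encodes ASCT1, an exchanger of serine, alanine and threonine. It had 5.82, 4.59 and 5.63 in the double-positive arrays and 3.93, 3.88 and 3.12 in the CD31+ arrays. The groups did not overlap, although double-positive replicate 2 lay nearer to the CD31+ arrays than the others did. The difference was 1.70 (standard error 0.443, adjusted p = 0.312 from limma), or 1.02 with centred arrays, and its other probe sets were dim. Slc1a5, which encodes the glutamine carrier ASCT2, was dim at 2.63 ± 0.0124 and 2.85 ± 0.406 (SD, n = 3 each). The glutamate carriers Slc1a1, Slc1a2 and Slc1a3 of neurons, glia and kidney had group means of 2.49 to 2.75.

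Glucose carriers (Slc2, 11 genes) were called at none of their probe sets. Slc2a1, which encodes GLUT1, the main glucose carrier of endothelium, was bright with 9.84, 10.04 and 9.04 in the double-positive arrays and 9.62, 10.04 and 8.84 in the CD31+ arrays. Arrays with the same number lay close together, within 0.22, and those numbered 3 were the lowest of both groups. The difference was 0.14 with a 95% confidence interval of -1.06 to 1.33 (adjusted p = 1 from limma). With the replicate block the interval was -0.11 to 0.38 over all probe sets and -0.49 to 0.76 with the filter. The difference was -0.54 with centred arrays, and a second bright probe set differed by -0.05. Slc2a13, a carrier of myo-inositol, had 8.66 ± 0.390 and 8.22 ± 0.291 (SD, n = 3 each), a difference of 0.44 with a 95% confidence interval of -0.28 to 1.16, which was -0.24 with centred arrays.

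Slc2a3, which encodes GLUT3, a high-affinity glucose carrier of neurons, leukocytes and platelets, was the only carrier with all double-positive arrays below all CD31+ arrays. It had 2.66, 2.40 and 2.88 in the double-positive arrays and 4.14, 3.62 and 4.91 in the CD31+ arrays. The double-positive values were low. The difference was -1.58 (standard error 0.382, unadjusted p = 0.0121, adjusted p = 0.270 from limma), -2.26 with centred arrays, and it passed as lower when the probe sets of each gene were averaged, at -0.67 (adjusted p = 0.0153 from limma over genes). The letter s in the name of this probe set marks probes that can match more than 1 transcript. Its other probe sets differed by -0.88, -0.22 and 0.00. Slc2a4, the insulin-regulated GLUT4, and Slc2a2 were at the floor.

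Carriers of the Slc6 family (18 genes), which take up glycine, taurine, creatine, GABA and amine transmitters with sodium and chloride, were dim, and 15 of the 18 varied by less than 0.5 over the 6 arrays. Limma called 0, with 1 higher at an unadjusted p of less than 0.05. That was Slc6a9, which encodes the glycine carrier GlyT1, at 5.41, 5.13 and 4.29 in the double-positive arrays and 4.02, 4.13 and 3.56 in the CD31+ arrays. The lowest double-positive value was close to the highest CD31+ value, and the difference was 1.04 (standard error 0.364, adjusted p = 0.510 from limma), or 0.36 with centred arrays. Slc6a6, the taurine carrier, was dim at 2.41 ± 0.0273 and 2.64 ± 0.245 (SD, n = 3 each). The creatine carrier Slc6a8 had 4.27 ± 0.110 and 4.29 ± 0.180 (SD, n = 3 each), a difference of -0.02.

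Proton-coupled amino acid carriers (Slc36, 4 genes) were not called. Slc36a4, an amino acid carrier of high affinity, had 5.25, 3.78 and 4.93 in the double-positive arrays and 4.40, 3.07 and 3.69 in the CD31+ arrays. It was higher within each of the 3 same-numbered pairs, although the groups overlapped, and the difference of 0.93 did not pass (adjusted p = 0.659 from limma). The lysosomal carrier Slc36a1 was at the floor. Of all 82 carriers, 27 (32.9%) lay within 0.1 of the floor on all arrays and 52 (63.4%) varied by less than 0.5 over the 6 arrays, against 26.1% and 53.7% of all genes.

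**Figure D4:**
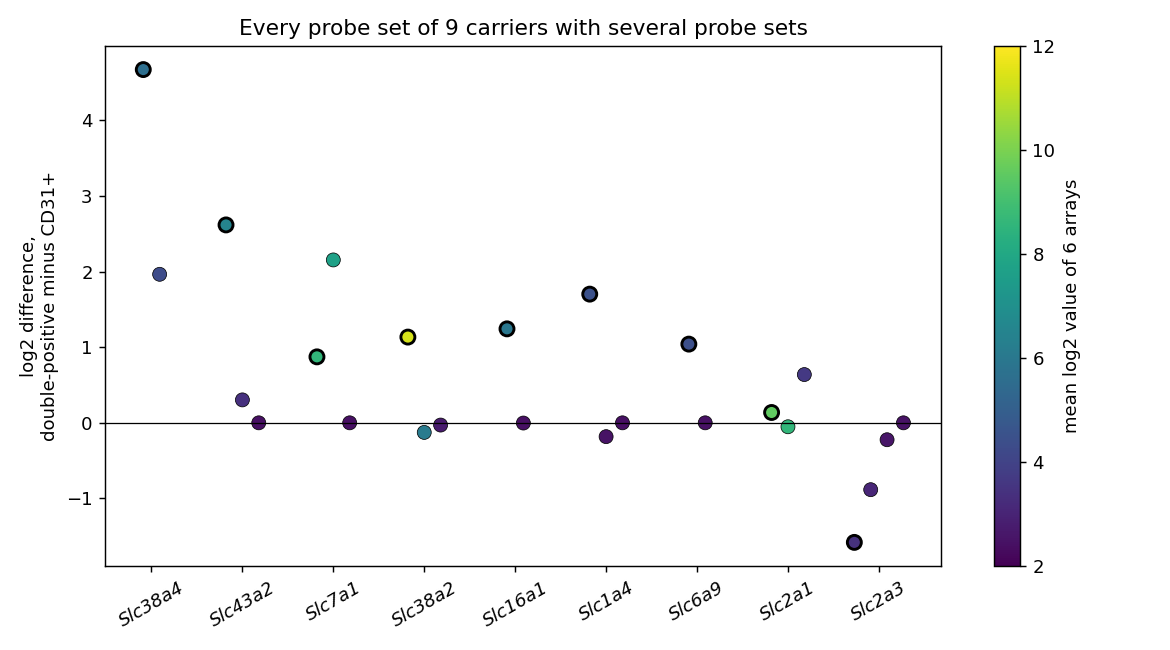
Difference (y axis, log2, double-positive minus CD31+) at every probe set of 9 carriers (x axis), coloured by the mean log2 value over the 6 arrays, with the brightest probe set of each gene in a heavy outline. Slc7a1 differs more at its second probe set (2.15) than at its brightest (0.87), both probe sets of Slc38a4 are above 0, and the darkest points, near the floor, mostly lie close to 0.

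Genes that work with the carriers were read from lists, and the counts describe the calls only. Over all probe sets, 0.879% of all genes were called higher and 0.176% lower. At an unadjusted p of less than 0.05 these shares were 12.5% and 2.12%. Among genes that passed the filter they were 30.7% and 3.46%, or 10.7% and 9.04% with centred arrays. Of 8 measured partners and regulators, limma called 0 over all probe sets (2 higher and 0 lower at an unadjusted p of less than 0.05). Of the 2 that passed the filter it called 1 higher, and the median difference of the 8 was 0.05. Nptn, which encodes neuroplastin, a partner of MCT proteins, had 8.87 ± 0.261 against 7.23 ± 0.487 (SD, n = 3 each), a difference of 1.64 (adjusted p = 0.00850 from limma with the filter, 0.165 over all probe sets). Nedd4l, a ubiquitin ligase that acts on several carriers, had 5.58 ± 0.433 against 3.08 ± 0.301 (SD, n = 3 each), a difference of 2.50 (adjusted p = 0.0683 from limma). Txnip, which promotes the uptake of GLUT1 from the membrane, differed by 0.30, and Emb, which encodes the MCT partner embigin, was dim and differed by -0.11.

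Of 13 genes of the response to amino acid shortage, 1 was called higher over all probe sets and 0 lower, 1 being higher and 2 lower at an unadjusted p of less than 0.05 and a median difference of 0.30. Nupr1, a stress-induced regulator of transcription, had an increase of 4.78 (adjusted p = 0.0309 from limma, standard error 0.341), with 8.85 ± 0.608 against 4.07 ± 0.10 (SD, n = 3 each), and this call was lost with the replicate block (adjusted p = 0.198 from limma). Asns, which encodes asparagine synthetase, a target of ATF4, went the other way, with 3.29 ± 0.473 against 5.18 ± 0.446 (SD, n = 3 each), a difference of -1.89 (adjusted p = 0.173 from limma). Phgdh, the first enzyme of serine synthesis, differed by -0.60 and passed as lower with the filter and centred arrays, at -1.28 (adjusted p = 0.0113 from limma). Cebpb differed by 1.76 (adjusted p = 0.566 from limma).

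Of 19 genes of the amino acid branch of mTORC1, the kinase complex that senses amino acids at lysosomes, 0 were called over all probe sets (4 higher and 0 lower at an unadjusted p of less than 0.05), and the median difference was 0.40. Of the 8 that passed the filter, 2 were called higher, beside 30.7% of all genes that passed. These were Rheb, the small GTPase that activates mTORC1, at 1.65 (adjusted p = 0.00426 from limma), and Sesn1, which encodes a sestrin, at 1.48 (adjusted p = 0.0235 from limma). With centred arrays Rheb passed, at 0.97 (adjusted p = 0.0311 from limma), and Sesn1 did not (adjusted p = 0.124 from limma). Rragd and Lamtor2, parts of the lysosomal platform of mTORC1, differed by 1.44 and 1.64 at low levels (adjusted p = 0.211 and 0.524 from limma).

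Of 16 enzymes that use the carried substrates, 0 were called over all probe sets (3 higher and 0 lower at an unadjusted p of less than 0.05) and the median difference was 0.00. Of the 8 that passed the filter, 2 were called higher, beside 30.7% of all genes that passed. With the filter and centred arrays 0 were, beside 10.7%. The 2 were Ldha, which encodes a subunit of lactate dehydrogenase, at 0.88 (adjusted p = 0.0468 from limma with the filter), and Odc1, which makes polyamines from ornithine, at 1.57 (adjusted p = 0.0175 from limma with the filter). Gclc, of glutathione synthesis, differed by 0.50 and Glud1, glutamate dehydrogenase, by 1.04 (adjusted p = 0.158 and 0.0621 from limma with the filter). Of 18 measured carriers of the same substrates outside the 9 families, 0 were called, 2 being higher and 0 lower at an unadjusted p of less than 0.05. These were the mitochondrial carriers Mpc1, of pyruvate, at 1.06 and Slc25a12, of aspartate and glutamate, at 0.80.

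Other cells that a sort can carry along were read from markers. The mean log2 value of 6 markers of fibroblastic reticular cells was 3.15 to 3.62 over the double-positive arrays and 4.08 to 5.12 over the CD31+ arrays. Of these, 0 were higher and 3 lower at an unadjusted p of less than 0.05, with 0 called over all probe sets and 1 called lower with the filter. For 6 markers of pericytes and smooth muscle it was 3.71 to 4.07 and 4.17 to 5.79, with 0 higher and 2 lower in the same way. Here 0 were called over all probe sets and 2 called lower with the filter. These filtered calls were Col3a1 (4.08 against 7.22), Acta2 (3.98 against 6.32) and Pdgfrb (3.97 against 6.89). Col3a1, Acta2 and Pdgfrb passed the filter only through their CD31+ values, so the filtered test adds no support. The other markers of these lists that passed the filter were not called, and their groups overlapped. Of these, Dcn had 5.11 against 5.43, and Rgs5 went the other way, with 7.45 against 7.12. For 5 measured genes of erythroid cells and platelets the mean log2 value was 4.01 to 4.30 and 3.37 to 3.83, with 1 higher and 0 lower. That was Itga2b, the integrin of platelets, with 5.06 against 3.26. Pf4 was bright in both groups, at 8.50 against 7.67, and its groups overlapped. Alas2, Hba-a1 and Slc4a1 were dim and differed by -0.08, -0.08 and -0.02. Markers of lymphocytes (2.47 to 2.52 and 2.60 to 2.85) and of myeloid cells (3.00 to 3.08 and 2.63 to 2.95, with 1 higher and 0 lower, Cd14) were dim on average, and Cd3g and Cd79a were at the floor. The other myeloid markers differed by -0.24 to 0.06. Ptprc, which encodes CD45, had 2.53, 2.74 and 2.74 in the double-positive arrays and 4.37, 2.77 and 4.03 in the CD31+ arrays. These groups did not overlap, though CD31+ replicate 2 lay close to the double-positive arrays. The difference was -1.05 (unadjusted p = 0.0838, adjusted p = 0.659 from limma). The part of these other cells in the differences of Slc2a3 and of the other carriers was not tested. Both arrays numbered 2 were bright for the control of B1 repeats, at 12.3 and 12.8 against 7.47 to 8.11 on the others, and without both of them limma with the filter called 5 of the 10 bright carriers higher, Slc16a1, Slc38a2, Slc38a4, Slc43a2 and Slc43a3, and 0 lower, beside 24% and 2.48% of the genes that passed the filter. In sorted bulk samples, fewer cells of a type and less RNA per cell cannot be told apart.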

How the data were processed

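RNA (20 ng per sample) was amplified in 2 rounds, labelled with biotin and read on Affymetrix mouse genome arrays. The authors normalized the arrays with GCRMA, and the deposited values are log2 RNA abundances, 1 per probe set and array, with a floor at 2.39; versions and the arrays normalized together are not given in the sources used here. Depth is not defined for arrays. Of 45101 probe sets, 64 are controls and 34945 map to 1 gene of the platform table, and all 82 carriers kept their symbol in RefSeq.

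Differential expression was computed with limma 3.58.1 in R 4.3.3 (lmFit, eBayes, no filter, no block, Benjamini-Hochberg at 5% FDR over 45037 probe sets; 4 residual and 0.356 prior degrees of freedom, against 4.70 prior with the filter). The test was also tested on simulated data. Genes were read at their brightest probe set. Named were carriers called over all probe sets or with the filter, carriers whose groups lay apart by at least 1, 10 carriers fixed by role, up to 4 per family for their level, and up to 4 of each pathway list by smallest p. The members and lists were chosen with earlier results of these data known.

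Same-numbered arrays deviated together (correlations of 0.341 to 0.475 over 5764 probe sets, against -0.405 to 0.0566 for other pairs) and the design describes paired samples, so the numbers mark pairs. The values, errors and calls reported are nevertheless those of the fit without the block unless the block is named, and the paired fit is given as an alternative. Alternatives were the replicate block, the filter, centred arrays, trend and robust variances, array weights, other readings per gene, other thresholds and each array left out. Leaving out arrays under the filter was added after the data were seen. Python 3.11.15 and matplotlib 3.10.9 drew the figures. The replicates are biological replicates per the labels.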

Additional observations from a re-analysis of the deposited data

How the results depend on the processing

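Over all probe sets 2 carriers were called higher and 0 lower. The number called higher was 0 with the replicate block and 0 at 1% FDR, 4 with the filter, 6 with the filter and the replicate block, 6 with centred arrays and no filter, and between 0 and 2 with any 1 array left out. With the filter it lay between 2 and 4 with any 1 array left out and was 5 without both arrays numbered 2. It was 2 or 3 under the other alternatives run, which were trend and robust variances, array weights, probe sets averaged, 1 probe set per gene, any probe set of the gene, a difference of at least 1, and the filter with centred arrays with or without the block. The number called lower was 1 with probe sets averaged (Slc2a3) and 62 with centred arrays and no filter, where centring shifts the constant values at the floor by construction, and 0 under every other alternative run. Of all 45037 probe sets, limma called 277 in either direction, 4 with the replicate block and 66 to 144 with any 1 array left out. With centred arrays and no filter it called 36555. Of the 5764 probe sets of the filter it called 1923, or 2887 with the replicate block. With any 1 array left out it called 751 to 2196 of these. The carrier counts describe the calls only.

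Of the 15 named carriers, those that changed sign were Slc2a1, Slc3a2, Slc7a11 and Slc1a5. Slc2a1 was -0.54 and Slc3a2 -0.33 with centred arrays, with the filter and centred arrays, and with these and the replicate block, and Slc7a11 was -0.49 with centred arrays and no filter. Slc2a1 was -0.057 with array weights, -0.19 without CD31+ replicate 3 and -0.063 without double-positive replicate 2, with and without the filter, and lay between -0.19 and 0.44 with any 1 array left out. Slc1a5 was 0.014 without CD31+ replicate 2 and lay between -0.34 and 0.014 with any 1 array left out. The causes of these changes were not tested. Values at the floor limit what can be seen for the 72 carriers with a mean under 5.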
